A study of Mus musculus with 12 samples.

Results

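The genes described here carry the kidney side of the FGF23, klotho and vitamin D axis and of phosphate transport. They are Kl (klotho), Fgfr1, Pth1r, the vitamin D enzymes Cyp27b1 and Cyp24a1, the vitamin D receptor gene Vdr, and the sodium-phosphate cotransporter genes Slc34a1, Slc34a3, Slc20a1 and Slc20a2. They were chosen by name from the deposited expression table, in which all 10 were found among 22053 rows. All 10 passed the filter on low values and were among the 13143 genes tested.

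Whole kidney of 12 C57BL/6 mice was measured by RNA sequencing, with 1 library per mouse and 4 mice in each of 3 groups. CKD mice were fed a diet with 0.2% adenine for 8 weeks, from 8 to 16 weeks of age, and were injected i.p. with PBS every week. CKD+Fe mice were fed the same adenine diet and were given iron dextran i.p. every week at 0.5 g/kg. Control mice of the same age were fed the diet without adenine and were injected with PBS. All mice were wild type, and the model is a dietary kidney injury in which the whole organ, with every cell type in it, was extracted. Expression is given as FPKM, a level of fragments corrected for transcript length and for the number of mapped reads. In bulk tissue, fewer cells of a type and less RNA per cell cannot be told apart.

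FGF23 is a hormone from bone that acts on the kidney through an FGF receptor with klotho as its co-receptor. It lowers phosphate reabsorption, represses Cyp27b1, which makes active vitamin D, and induces Cyp24a1, which degrades it. Parathyroid hormone, acting through Pth1r, also lowers phosphate reabsorption but induces Cyp27b1. Slc34a1 and Slc34a3 take up phosphate at the brush border of the proximal tubule, whereas Slc20a1 and Slc20a2 are found in nearly every cell type. Klotho is strongest in the distal convoluted tubule and is also made in the proximal tubule.

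The promoters of 4 of the genes are shown because the first 3 belong to genes that were lower in CKD mice and the last to the gene that was most strongly raised among the 10. Each holds 250 bases before and 50 after a transcription start listed by RefSeq for GRCm38.p6, read 5′ to 3′ on the strand of the gene. Capitals mark any match, on either strand, to GTTAAT (a half-site of the HNF1 factors of the proximal tubule), CAAAGTCCA (an HNF4 element) or AGTTCA and GGTTCA (half-sites of the vitamin D receptor).
Slc34a1, chr13:55399398-55399697, plus strand: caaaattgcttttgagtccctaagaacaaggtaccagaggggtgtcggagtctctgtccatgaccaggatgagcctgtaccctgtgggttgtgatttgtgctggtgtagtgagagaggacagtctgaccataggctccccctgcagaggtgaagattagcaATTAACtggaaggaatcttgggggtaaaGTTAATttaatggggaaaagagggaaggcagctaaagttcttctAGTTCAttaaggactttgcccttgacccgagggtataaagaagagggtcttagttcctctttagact
Slc34a3, chr2:25234185-25234484, minus strand: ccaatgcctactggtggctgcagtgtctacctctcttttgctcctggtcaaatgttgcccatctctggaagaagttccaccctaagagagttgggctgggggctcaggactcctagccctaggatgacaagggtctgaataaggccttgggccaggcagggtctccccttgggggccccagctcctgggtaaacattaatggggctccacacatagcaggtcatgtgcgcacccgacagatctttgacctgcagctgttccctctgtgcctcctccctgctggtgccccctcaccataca
Kl, chr5:150952357-150952656, plus strand: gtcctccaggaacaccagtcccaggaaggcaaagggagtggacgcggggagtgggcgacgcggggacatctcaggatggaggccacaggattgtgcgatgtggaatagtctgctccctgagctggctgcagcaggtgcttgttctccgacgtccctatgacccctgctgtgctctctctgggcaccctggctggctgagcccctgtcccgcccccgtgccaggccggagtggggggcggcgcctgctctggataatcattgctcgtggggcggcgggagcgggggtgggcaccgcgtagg
Cyp27b1, chr10:127047996-127048295, plus strand: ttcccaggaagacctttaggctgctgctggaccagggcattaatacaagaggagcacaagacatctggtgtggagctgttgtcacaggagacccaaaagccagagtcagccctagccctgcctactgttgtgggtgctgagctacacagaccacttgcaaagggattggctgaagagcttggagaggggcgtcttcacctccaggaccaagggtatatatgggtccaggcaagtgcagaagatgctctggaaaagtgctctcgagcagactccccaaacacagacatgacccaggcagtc
The Slc34a1 window held GTTAAT on both strands, 61 and 89 bases before the start, and AGTTCA 17 bases before it. No such letters were found in the Slc34a3, Kl and Cyp27b1 windows. Among 32851 windows of that length, GTTAAT was found in 7.1%, CAAAGTCCA in 0.475% and AGTTCA or GGTTCA in 22.9%. The GC content was 46.7% for Slc34a1, 57.7% for Slc34a3, 54.3% for Cyp27b1 and 67.3% for Kl. RefSeq windows were matched for 7 of the 10 genes.

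In each group 1 mouse stood apart from the rest: 594 genes differed at least 2-fold from the other mice of the group in control mouse 042301, 804 in CKD mouse 110310 and 441 in CKD+Fe mouse 042702, against 40 to 223 in the other mice. Summed collecting duct markers were 1681 FPKM in control mouse 042301 and 269 to 457 FPKM in the other control mice. Markers of the thick ascending limb, Umod and 3 others, summed to 1304 to 3118 FPKM over all mice, whereas markers of the adrenal cortex, the gland beside the kidney, summed to at most 1.70 FPKM. Most genes were higher in CKD mice on the FPKM scale, and the median of all log2 fold changes was 0.50 in CKD and also in CKD+Fe as compared with control mice. It was 0.01 and 0.02 once the libraries had been rescaled by medians of ratios, so each gene is also given relative to this shift.

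In CKD as compared with control mice, 4 of the 10 genes were lower and 3 were higher past an adjusted p of 0.05 (limma with Benjamini-Hochberg adjustment over all genes tested). Slc34a3, Slc34a1, Kl and Pth1r fell, and Cyp27b1, Slc20a1 and Fgfr1 rose. Of all genes tested, 13.3% were called lower and 54.6% higher. After median-of-ratios rescaling, 5 of the 10 were lower and 2 higher, and after rescaling to equal totals 4 were lower and 5 higher. Over all genes 3856 were lower and 3780 higher under the first of these, against 1748 and 7180 without it. No such count is given for the second. The same 4 genes that fell had no overlap between CKD and control mice, as did the 3 that rose, against 10.5% of all genes without overlap in the lower and 44.6% in the higher direction. The median log2 fold change of the 10 genes was -0.07, beside 0.50 for all genes tested.

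**Figure D1:**
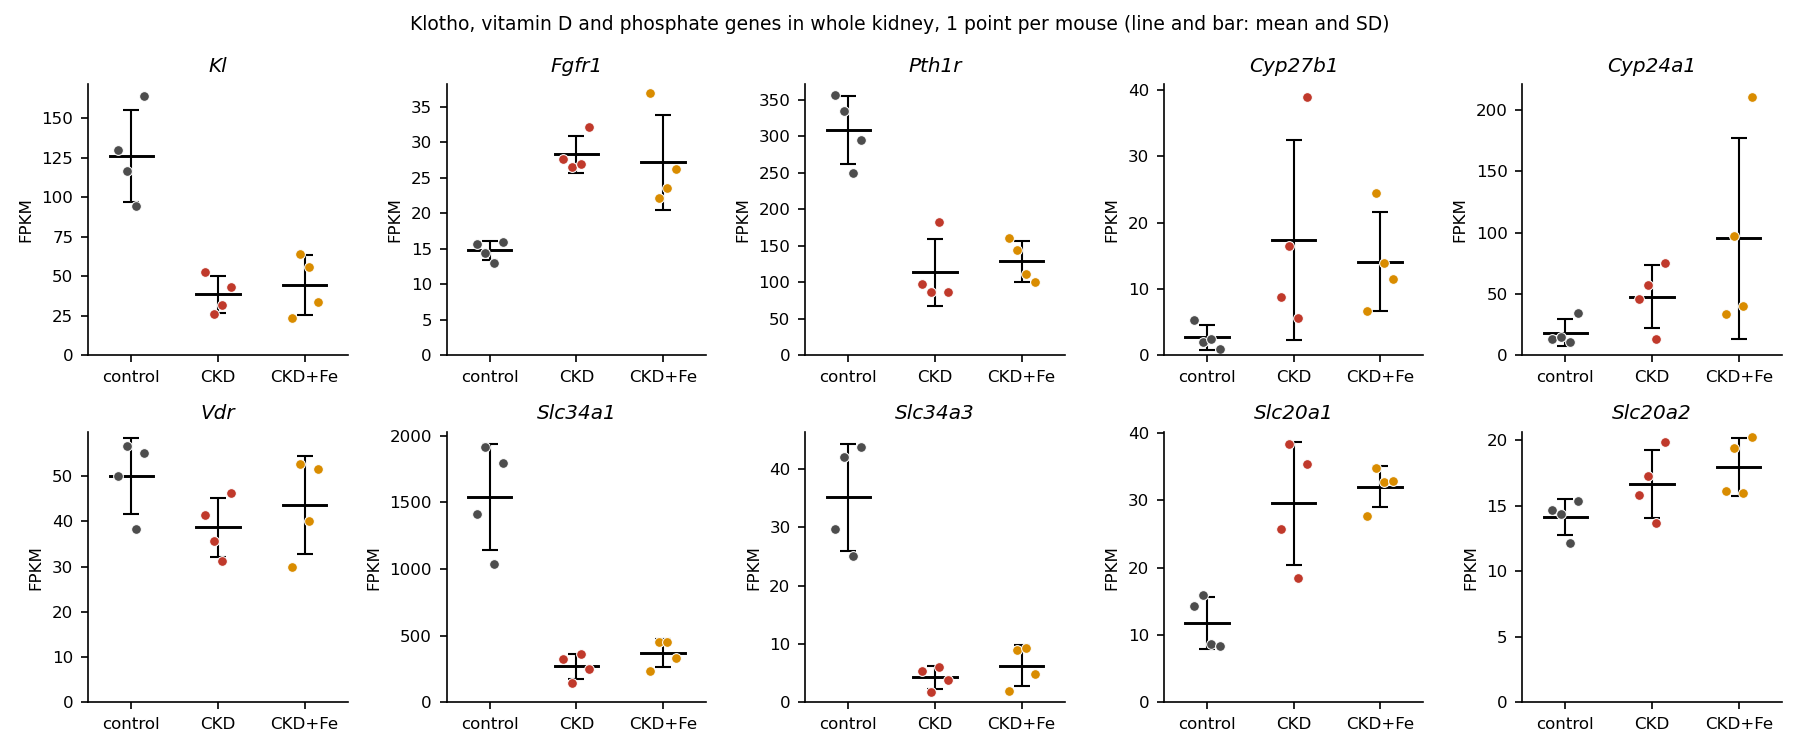
FPKM (vertical axes, from 0) of the 10 genes in control, CKD and CKD+Fe kidneys, with 1 point per mouse and lines and bars for the mean and SD of 4 mice. All CKD and CKD+Fe points lie below all control points for Kl, Pth1r, Slc34a1 and Slc34a3 and above them for Fgfr1, Cyp27b1 and Slc20a1.

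Kl, the klotho gene, was measured at 129.7, 116, 94.4 and 164 FPKM in control mice 012811, 012822, 042301 and 042310, the order used for the control group throughout. In CKD mice 021320, 022301, 110310 and 120102, again in the order used throughout, it was 52.6, 25.9, 32.0 and 43.4 FPKM. The highest CKD mouse was thus below the lowest control mouse, 042301. The means were 126 ± 29.2 FPKM (SD, n = 4) in control and 38.5 ± 11.9 FPKM (SD, n = 4) in CKD mice. The log2 fold change of FPKM + 1 was -1.71 (SE 0.30, adjusted p = 0.000213), or -2.21 relative to the median of all genes. The exact two-sided permutation test over mice gave p = 0.0286, the smallest value that 4 mice against 4 allow, here and wherever this p is given.

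Fgfr1, an FGF receptor that forms the FGF23 receptor together with klotho, went the opposite way to its co-receptor. It was 15.7, 14.45, 13.04 and 15.9 FPKM in control mice and 27.6, 26.5, 27.0 and 32.2 FPKM in CKD mice. The CKD mice lay close together and all above the control mice. Fgfr1 rose by 0.89 on the log2 scale (SE 0.15, adjusted p = 0.000193, exact permutation p = 0.0286), or 0.39 relative to the median of all genes. After median-of-ratios rescaling it was 0.34 with an adjusted p of 0.0553, so that the call was lost. Of the fibroblast and myofibroblast markers 8 of 8 were called higher, beside 54.6% of all genes tested. These markers summed to 88.6 to 125.9 FPKM in control and 464 to 872 FPKM in CKD mice. The part of these cells in the Fgfr1 result was not tested.

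Pth1r, the parathyroid hormone receptor, was 356.5, 334, 250 and 295 FPKM in control mice. In CKD mice it was 98.2, 86.95, 182 and 86.1 FPKM, with mouse 110310 high and the other 3 close together. Pth1r fell by 1.5 on the log2 scale (SE 0.23, adjusted p = 9.06e-05, exact permutation p = 0.0286), and by 1.75 without CKD mouse 110310. Relative to the median of all genes the change was -2.0.

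The 2 vitamin D enzymes were both higher on average in CKD mice, and the spread between mice was large. Cyp27b1, which makes the active hormone, was 5.25, 2.06, 2.46 and 0.9025 FPKM in control mice and 8.73, 16.4, 5.565 and 38.95 FPKM in CKD mice. The groups did not overlap, although the lowest CKD mouse, 110310, came close to the highest control mouse, 012811. The means were 2.67 ± 1.84 FPKM and 17.4 ± 15.1 FPKM (SD, n = 4 each). Cyp27b1 rose by 2.12 on the log2 scale (SE 0.51, 95% interval 1.01 to 3.22, adjusted p = 0.00246, exact permutation p = 0.0286), or 1.61 relative to the median of all genes. Macrophages can also make this enzyme, and 9 of 9 macrophage and leukocyte markers were called higher, beside 54.6% of all genes tested. These markers summed to 390 to 726 FPKM in control and 2488 to 5565 FPKM in CKD mice. The part of these cells in the Cyp27b1 result was not tested.

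Cyp24a1, which inactivates the hormone, was 13.5, 14.9, 10.5 and 34.5 FPKM in control mice and 45.8, 57.2, 13.3 and 74.8 FPKM in CKD mice. CKD mouse 110310 lay within the control range and control mouse 042310 stood above its group, so the groups overlapped. With a log2 fold change of 1.24 (SE 0.59, 95% interval -0.03 to 2.51) the difference did not pass the test (adjusted p = 0.0774, exact permutation p = 0.114). Relative to the median of all genes the change was 0.74. It passed without CKD mouse 110310 (log2 fold change 1.75, adjusted p = 0.0123) or without control mouse 042310 (1.58, adjusted p = 0.0371), and it was 0.69 (adjusted p = 0.337) after median-of-ratios rescaling.

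Within a mouse, the log2 ratio of Cyp27b1 to Cyp24a1 averaged -2.89 ± 1.69 (SD, n = 4) for the control, -1.60 ± 0.64 for the CKD and -2.504 ± 1.17 for the CKD+Fe group. It was lowest in control mouse 042310 at -5.26 and in CKD+Fe mouse 122320 at -4.19, and highest in CKD mouse 120102 at -0.94. No shift of the ratio was detectable between CKD and control mice (difference 1.30, SE 0.90, exact permutation p = 0.171, adjusted p = 0.286 over the 15 ratio comparisons). The difference of CKD+Fe from CKD mice was -0.91 (SE 0.67, exact permutation p = 0.229, adjusted p = 0.343). Both values leaned on single mice, as the first was 0.51 without control mouse 042310 and the second -0.34 without CKD+Fe mouse 122320. Leaving out 1 mouse at a time moved them over 0.51 to 1.81 and -1.24 to -0.34.

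**Figure D2:**
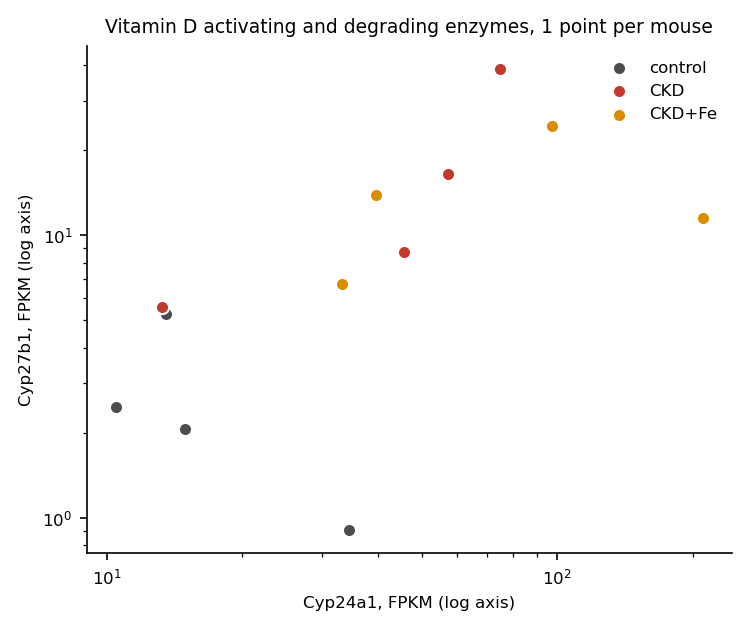
Cyp27b1 against Cyp24a1 in FPKM, both on log axes, with 1 point per mouse coloured by group. The control mice lie lowest for Cyp27b1, at 0.9025 to 5.25 FPKM, and CKD mouse 110310 lies among them for Cyp24a1 at 13.3 FPKM.

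Vdr, the nuclear receptor for active vitamin D, was 49.95, 56.7, 38.25 and 55.1 FPKM in control mice and 41.5, 35.6, 31.3 and 46.2 FPKM in CKD mice. The groups overlapped through control mouse 042301. The log2 fold change was -0.36 (SE 0.19, adjusted p = 0.110, exact permutation p = 0.114) and -0.86 relative to the median of all genes. Whether it was called rested on the scaling and on 1 mouse, since the value was -0.93 (adjusted p = 0.00182) after median-of-ratios rescaling and -0.48 (adjusted p = 0.0403) without control mouse 042301.

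The apical phosphate cotransporters showed the largest falls among the 10 genes. Slc34a1, the main phosphate carrier of the brush border, was 1417, 1918, 1037 and 1797 FPKM in control mice and the most abundant of the 10 per transcript length. In CKD mice it was 323, 145, 361.5 and 254 FPKM. Every CKD mouse was far below the lowest control mouse. The means were 1542 ± 399 FPKM and 271 ± 94.9 FPKM (SD, n = 4 each). The log2 fold change was -2.54 (SE 0.30, adjusted p = 9.2e-06, exact permutation p = 0.0286), or -3.05 relative to the median of all genes.

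Slc34a3, the second brush border carrier, was 29.7, 41.9, 25.02 and 43.6 FPKM in control mice and 5.45, 1.79, 6.11 and 3.80 FPKM in CKD mice. Mouse 022301 was the lowest CKD mouse for Slc34a3, for Slc34a1 and for Kl. For Slc34a3 the log2 fold change was -2.82 (SE 0.38, adjusted p = 3.01e-05, exact permutation p = 0.0286), or -3.32 relative to the median of all genes.

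Markers of the proximal tubule moved with these carriers. Of 12 such markers, 11 were called lower and 0 higher, beside 13.3% and 54.6% of all genes tested. The median log2 fold change of the 12 was -1.94, and their sum was 6376 to 7586 FPKM in control and 858 to 1662 FPKM in CKD mice. Set against the mean of these markers within each mouse, the log2 ratio of Slc34a1 was 2.48 ± 0.19 (SD, n = 4) in control and 2.18 ± 0.28 in CKD mice. The groups overlapped, with a difference of -0.30 (SE 0.17, exact permutation p = 0.114, adjusted p = 0.214). The log2 difference of Slc34a1 was thus -2.54 in the tissue and -0.30 against the mean of these 12 markers. The log2 fold changes of the markers themselves ran from -4.49 (Slc7a13) to -0.07 (Slc5a12), so the second value depends on which markers are averaged. In CKD+Fe mice the ratio was 1.97 ± 0.23, with a difference of -0.51 (SE 0.15) from control mice (exact permutation p = 0.0571, adjusted p = 0.122).

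The ratio of Slc34a1 to Slc34a3 averaged 5.46 ± 0.11 (log2, SD, n = 4) for the control, 6.05 ± 0.22 for the CKD and 6.08 ± 0.63 for the CKD+Fe group. All CKD and all CKD+Fe mice were above all control mice. The differences from control were 0.59 (SE 0.12) and 0.62 (SE 0.32), each with an exact permutation p of 0.0286, and neither passed after adjustment (adjusted p = 0.0714). The value of 6.96 in CKD+Fe mouse 042702 was the highest of the 12, and without that mouse the second difference was 0.32.

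Kl was compared in the same way with markers of the distal convoluted and connecting tubule. No ratio of Kl to the proximal tubule markers was formed, although klotho is also made there. Of 8 markers, 2 were called higher in CKD mice, beside 54.6% of all genes tested. These were Trpv5 (log2 fold change 2.04) and Trpm6 (1.23), which take up calcium and magnesium. A single marker was called lower (Pvalb, a calcium-binding protein, log2 fold change -3.42), beside 13.3% of all genes tested. All 8 enter the mean, so their own changes move the ratio. The sum of the 8 was 369 to 571 FPKM in control and 474 to 718 FPKM in CKD mice. The log2 ratio of Kl to the mean of the 8 markers was 2.48, 2.24, 2.48 and 2.504 in control mice and 0.75, 0.19, 0.49 and 0.43 in CKD mice. It was lower by 1.96 (SE 0.13) in CKD mice, with a wide gap between the groups (exact permutation p = 0.0286, adjusted p = 0.0714). In CKD+Fe mice it was 0.46, 0.93, 0.49 and -0.11, in the order 042702, 062910, 111710 and 122320. This was a difference of -1.98 (SE 0.22) from control mice and of -0.02 (SE 0.24) from CKD mice (exact permutation p = 0.0286 and p = 0.943).

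**Figure D3:**
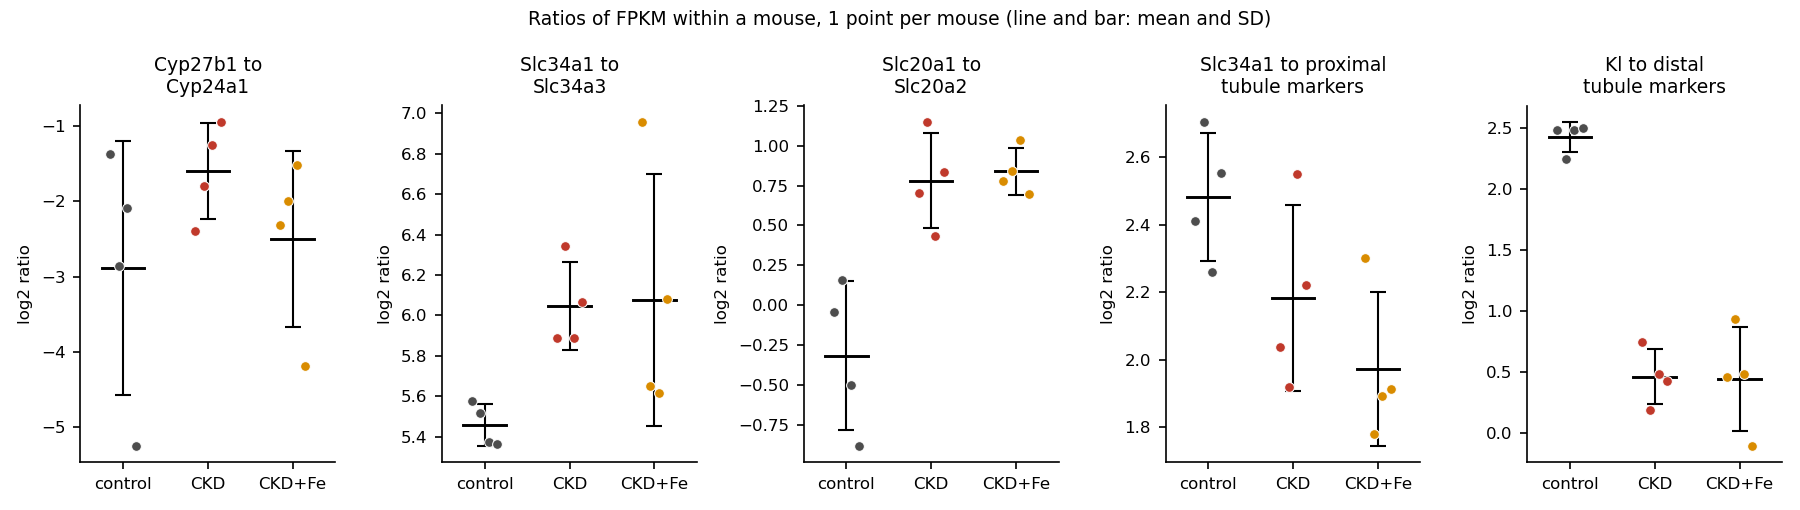
Log2 ratios of FPKM within a mouse (vertical axes, not starting at 0), with 1 point per mouse and lines and bars for the mean and SD of 4 mice. The Kl ratio of all control mice is at least 2.24 and that of all CKD and CKD+Fe mice is at most 0.93, while the groups overlap for Cyp27b1 to Cyp24a1 and for Slc34a1 to the proximal tubule markers.

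The broadly expressed phosphate cotransporters differed from each other. Slc20a1 was 14.2, 15.97, 8.605 and 8.35 FPKM in control mice and 25.8, 38.4, 18.5 and 35.4 FPKM in CKD mice, so that the lowest CKD mouse, 110310, was still above every control mouse. Slc20a1 rose by 1.25 on the log2 scale (SE 0.24, adjusted p = 0.000422, exact permutation p = 0.0286), or 0.75 relative to the median of all genes. Slc20a2 was 14.65, 14.35, 12.2 and 15.4 FPKM in control mice and 15.8, 17.3, 13.7 and 19.9 FPKM in CKD mice. Its log2 fold change of 0.22 (SE 0.14, 95% interval -0.08 to 0.52) did not pass the test (adjusted p = 0.182) and was -0.29 relative to the median of all genes. It turned to -0.33 after median-of-ratios rescaling and to -0.24 after quantile normalization.

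The log2 ratio of Slc20a1 to Slc20a2, which does not depend on scaling, averaged -0.32 ± 0.47 (SD, n = 4) for the control, 0.78 ± 0.30 for the CKD and 0.84 ± 0.15 for the CKD+Fe group. All mice with CKD, with or without iron, were above all control mice. The differences of 1.10 (SE 0.28) and 1.16 (SE 0.24) from control each had an exact permutation p of 0.0286 and an adjusted p of 0.0714. In control mice Slc20a2 was at 14.1 ± 1.39 FPKM and Slc20a1 at 11.8 ± 3.895 FPKM (SD, n = 4 each), which overlapped, and in CKD mice Slc20a1 was the higher of the pair in every mouse.

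Iron dextran did not change any of the 10 genes in a way that passed the test. In CKD+Fe as compared with CKD mice 0 of the 10 were called by limma, 0 had an unadjusted p under 0.05, and the smallest exact permutation p was 0.286. Over all genes 0.00761% were called higher, which was the gene Fabp1, and 0.0% lower, with an unadjusted p under 0.05 in 790 genes. The adjusted p of the 10 genes ran from 0.914 to 0.999. The values of the members in the 2 groups overlapped for every gene, whereas 1.35% of all genes were without overlap in the higher and 1.09% in the lower direction.

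The intervals show what size of effect could be left undetected. Slc34a1 was 237, 450.3, 455 and 334 FPKM in CKD+Fe mice 042702, 062910, 111710 and 122320, the order used for this group, with a mean of 369 ± 104.5 FPKM. Its log2 fold change over CKD mice was 0.48 (95% interval -0.17 to 1.12), and that of Slc34a3 was 0.38 (-0.44 to 1.21). CKD+Fe mouse 042702, the mouse that stood apart in its group, was the lowest of the group for Slc34a1, Slc34a3, Kl, Vdr, Cyp27b1, Cyp24a1 and Slc20a1. It was the highest for Fgfr1 and Pth1r. Its proximal tubule markers summed to 962 FPKM, against 1913 to 2724 FPKM in the other CKD+Fe mice. Without the mouse that stood apart in each group the log2 fold changes were 0.84 for Slc34a1 (adjusted p = 0.124) and 0.94 for Slc34a3 (adjusted p = 0.131).

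Kl was 23.6, 64.0, 55.9 and 33.9 FPKM in CKD+Fe mice, a range that enclosed that of CKD mice. The log2 fold change was 0.15 (95% interval -0.49 to 0.79). For Cyp27b1, at 6.70, 24.4, 13.9 and 11.5 FPKM, it was -0.07 with an interval of -1.17 to 1.03. Cyp24a1 was 33.3, 97.5, 39.7 and 210.5 FPKM, with mouse 122320 far above the rest. Its log2 fold change was the largest of the 10 at 0.83, and its interval was wide, from -0.45 to 2.1. The intervals were narrower for Slc20a2 (0.10, -0.20 to 0.40), Fgfr1 (-0.08, -0.41 to 0.25), Vdr (0.15, -0.27 to 0.56), Slc20a1 (0.16, -0.35 to 0.67) and Pth1r (0.23, -0.27 to 0.73).

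CKD+Fe mice were also compared with the same control mice. Here 4 of the 10 genes were called higher and 4 lower, while 54.5% of all genes were higher and 11.0% lower. Slc34a3 (log2 fold change -2.44), Slc34a1 (-2.07), Kl (-1.56) and Pth1r (-1.27) were lower and Cyp27b1 (2.04), Slc20a1 (1.41) and Fgfr1 (0.81) higher, with adjusted p-values between 6.26e-05 and 0.00333. These 7 had no overlap with the control mice, nor had Slc20a2, against 50.4% of all genes without overlap in the higher and 9.85% in the lower direction. After median-of-ratios rescaling 5 were lower and 3 higher, with Vdr added to those that fell (-0.77, adjusted p = 0.00673) and Fgfr1 no longer called (0.27, adjusted p = 0.123). Over all genes 3618 were lower and 3634 higher under this rescaling, against 1442 and 7157 without it. Cyp24a1 rose by 2.07 (SE 0.59, adjusted p = 0.00763), with the lowest CKD+Fe mouse, at 33.3 FPKM, just below control mouse 042310 at 34.5 FPKM (exact permutation p = 0.0571). Since the CKD and CKD+Fe comparisons share their controls and the difference between CKD+Fe and CKD was not past the test, the Cyp24a1 call in one and not in the other shows no difference between them.

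Slc20a2 was 16.15, 19.4, 15.96 and 20.25 FPKM in CKD+Fe mice, each above every control mouse. The log2 fold change of 0.32 (SE 0.14, exact permutation p = 0.0286) missed the threshold after adjustment (adjusted p = 0.0568) and turned to -0.22 after median-of-ratios rescaling. Vdr, at 29.8, 52.7, 40.1 and 51.6 FPKM, overlapped with control mice and had a log2 fold change of -0.21 (SE 0.19, adjusted p = 0.341), which turned to 0.01 after rescaling to equal totals.

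**Figure D4:**
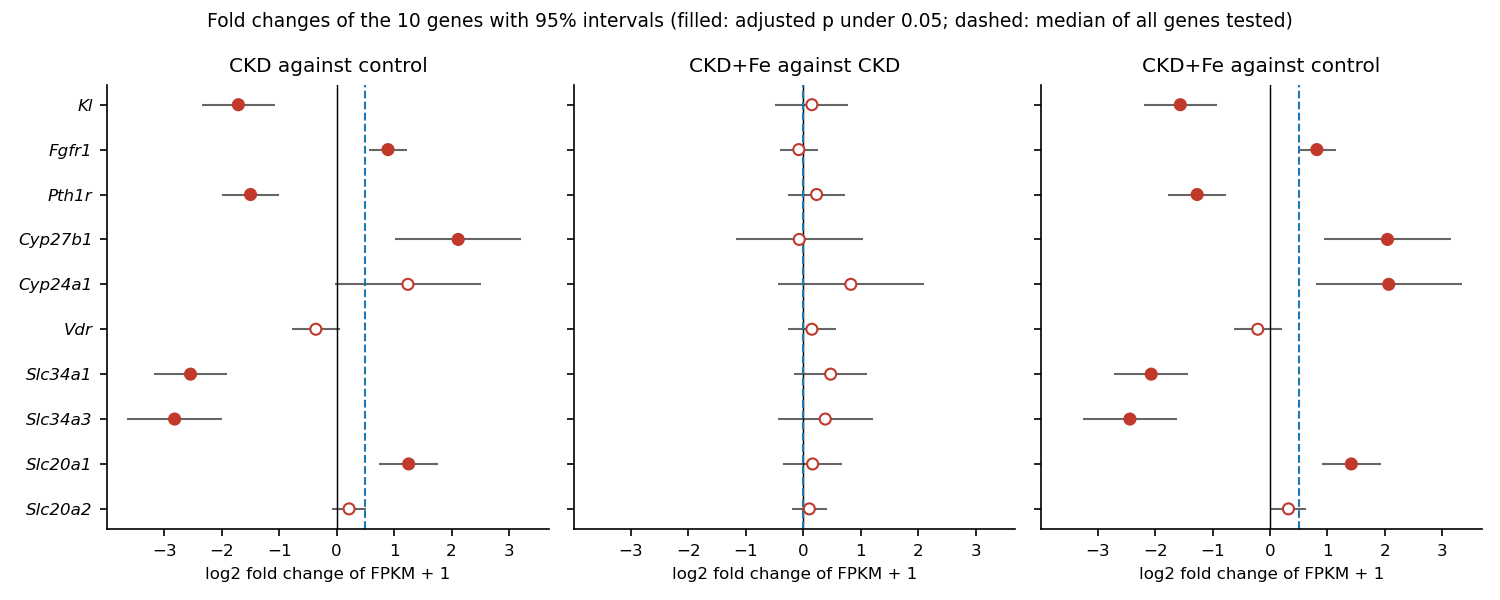
Log2 fold changes of FPKM + 1 (horizontal axes) of the 10 genes in the 3 comparisons, with 95% intervals from limma as lines, filled points for an adjusted p under 0.05 and a dashed line at the median of all genes tested. The middle panel has no filled point, and its widest interval, of Cyp24a1, runs from -0.45 to 2.1.

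The order of levels per transcript length in control mice was Slc34a1, Pth1r, Kl, Vdr, Slc34a3, Cyp24a1, Fgfr1, Slc20a2, Slc20a1 and Cyp27b1. From Vdr (50 ± 8.35 FPKM) over Slc34a3 (35.1 ± 9.12 FPKM) and Cyp24a1 (18.4 ± 10.9 FPKM) to Slc20a1, the range of each gene overlapped that of the next, while Slc34a1, Pth1r, Kl and Cyp27b1 were each clear of their neighbours. In CKD mice Slc34a1 was still first, at 271 FPKM, and Pth1r second, at 113 ± 46.3 FPKM, with overlapping ranges, while Cyp24a1 (47.8 ± 25.9 FPKM) stood beside Vdr (38.6 ± 6.54 FPKM) and Kl, and Slc34a3 was last at 4.29 ± 1.93 FPKM. In CKD+Fe mice Slc34a3 was last as well, at 6.27 ± 3.52 FPKM, and Cyp24a1 was at 95.2 ± 82.1 FPKM.

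The other genes of the pathway were taken from 9 lists of 65 genes, of which 57 passed the filter. In CKD mice 28 of the 57 were called higher and 11 lower, beside 54.6% and 13.3% of all genes tested, and their median log2 fold change was 0.33 beside 0.50. After median-of-ratios rescaling 17 were higher and 20 lower, beside 3780 and 3856 of the 13143 genes tested. In CKD+Fe as compared with control mice the counts were 28 and 10, beside 54.5% and 11.0% of all genes. After rescaling they were 13 and 17, beside 3634 and 3618 of all genes tested. None of the 57 was called between CKD+Fe and CKD mice by limma, where the smallest adjusted p was 0.467. An unadjusted p under 0.05 was found for 9 of them, beside 790 of the 13143 genes tested. The counts over all genes given here after rescaling also apply to each list below.

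**Figure D5:**
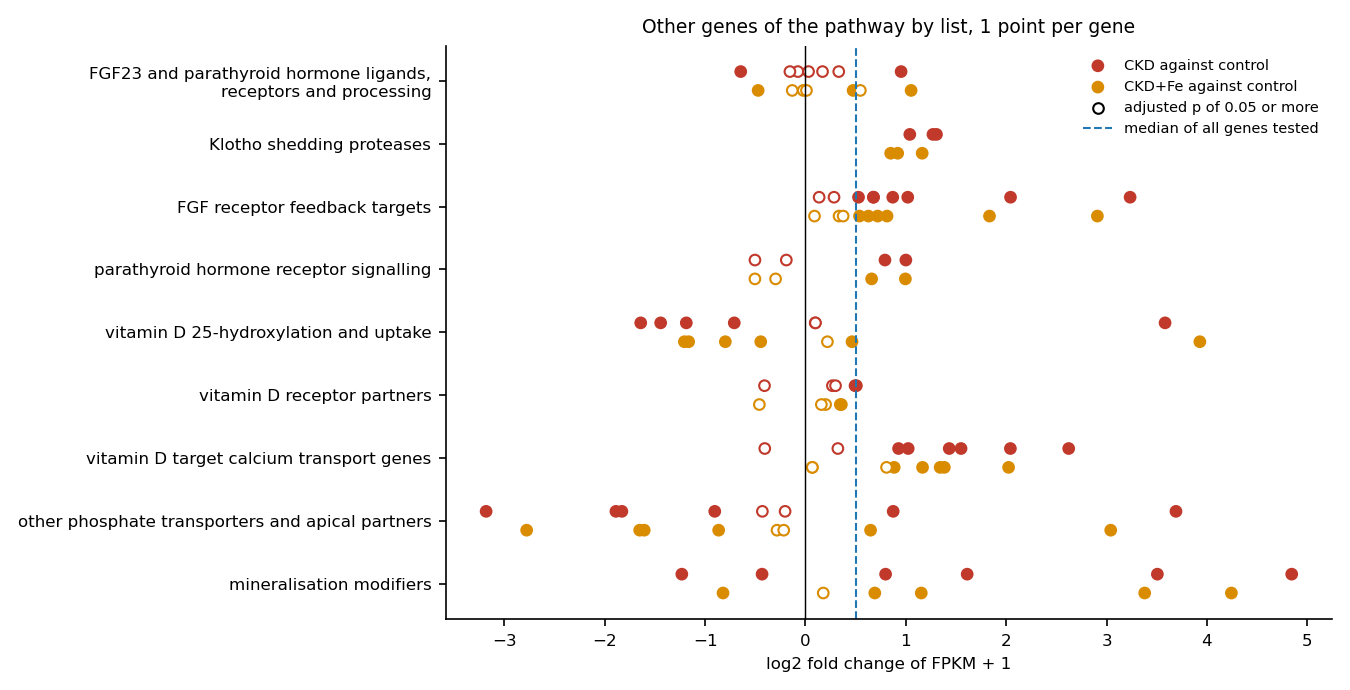
Log2 fold changes of FPKM + 1 (horizontal axis) of 57 other genes of the pathway by list, with 1 point per gene and comparison, filled for an adjusted p under 0.05, and a dashed line at the median of all genes tested in CKD against control. The points reach from -3.18 (Slc17a3) to 4.84 (Spp1) in CKD against control mice.

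The hormones themselves were barely detected or listed at 0 in the kidney. Fgf23, the bone hormone, was listed at 0 in all control mice and reached at most 0.0875 FPKM in CKD mice, and Pth was listed at 0 in every mouse. Of the 7 tested receptors and processing genes, Fgfr2 was higher (7.28 to 14.4 FPKM, log2 fold change 0.95, adjusted p = 0.00084) and Fgfr4 lower (14.5 to 8.79 FPKM, -0.65, adjusted p = 0.00563), where the first value is the mean of control and the second that of CKD mice, as in the sentences that follow. The Fgfr2 call was lost after median-of-ratios rescaling (0.43, adjusted p = 0.077) and the Fgfr4 call after rescaling to equal totals (-0.40, adjusted p = 0.0577). Without rescaling, 54.6% of the whole set of tested genes were higher and 13.3% lower. Median-of-ratios rescaling left 0 higher and 3 lower in this list, against 3780 and 3856 of the 13143 genes tested. The 3 were Fgfr4, Galnt3 (-0.70) and Fgfrl1 (-0.50), the last of which was 0.03 before.

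The 3 proteases known to shed klotho from the cell surface were all called higher, beside 54.6% of all genes tested. Adam17 went from 7.20 to 19.3 FPKM (log2 fold change 1.31, adjusted p = 6.2e-06) and Adam10 from 17.0 to 42.9 FPKM (1.27, adjusted p = 1.76e-05). After median-of-ratios rescaling the 3 were also called higher, with a median of 0.72, beside 3780 of the 13143 genes tested. In CKD+Fe against control mice the 3 were called higher too, beside 54.5% of all genes tested. After that rescaling only Adam17 was (0.65, adjusted p = 0.00103), beside 3634 of the 13143 genes tested. The calls of Adam10 (0.37, adjusted p = 0.0506) and Bace1 (0.35, adjusted p = 0.0692) were lost there. Of 9 genes listed as targets of FGF receptor signalling, 7 were higher and 0 lower, beside 54.6% and 13.3% of all genes tested. Their median was 0.68 beside 0.50 for all genes. The largest rises were those of Egr1, an early response transcription factor (3.29 to 42.4 FPKM, log2 fold change 3.23, adjusted p = 3.59e-05), and Etv4 (0.851 to 6.76 FPKM, 2.04, adjusted p = 1.39e-06). After median-of-ratios rescaling 3 of the 9 were higher, namely Egr1, Etv4 and Spred1, and 0 lower. The calls of Spry1, Spry2, Dusp6 and Spred2 were lost there. After quantile normalization 3 were higher and 2 lower, the latter being Spry4 (-0.68) and Etv5 (-0.47), which were 0.14 and 0.28 before.

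Signalling genes below the parathyroid hormone receptor showed 2 of 4 higher and 0 lower, beside 54.6% and 13.3% of all genes tested. The 2 were Adcy6, an adenylyl cyclase (17.0 to 35.3 FPKM, log2 fold change 1.0, adjusted p = 1.29e-05), and Gnaq (9.91 to 18.4 FPKM, 0.79, adjusted p = 0.00184, lost after median-of-ratios rescaling). That rescaling gave 1 higher and 2 lower, the latter being Gnas (-1.08, adjusted p = 0.00203) and Prkaca (-0.76, adjusted p = 0.00299). Among 5 tested partners of the vitamin D receptor, 2 were higher, beside 54.6% of all genes tested. These were Med1 (log2 fold change 0.51, adjusted p = 0.00464) and Snw1 (0.49, adjusted p = 0.00745). Both were near the median of all genes and turned to -0.01 and -0.07 after median-of-ratios rescaling, which left 0 higher and 1 lower, Rxra (-0.96, adjusted p = 0.00144).

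Of 7 genes of vitamin D 25-hydroxylation and uptake, 4 were lower and 1 was higher, against 13.3% and 54.6% over the whole set of tested genes. Median-of-ratios rescaling gave 5 lower and 1 higher, with Cyp27a1 (-0.46) added to those that fell, against 3856 and 3780 of the 13143 genes tested. Lrp2 and Cubn of this list are also among the proximal tubule markers above. The fallen genes serve the reabsorption of filtered proteins in the proximal tubule and included Lrp2, which encodes megalin (92.2 to 29.1 FPKM, log2 fold change -1.64, adjusted p = 0.000543), and Amn (67.1 to 27.2 FPKM, -1.44, adjusted p = 0.00069). The gene that rose was Gc, the vitamin D binding protein of plasma (10.2 to 133 FPKM, 3.58, adjusted p = 2.91e-08), which ranged from 8.56 to 13.6 FPKM over control, from 115.5 to 166 FPKM over CKD and from 126 to 225 FPKM over CKD+Fe mice.

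Calcium transport genes known as targets of vitamin D were higher in 6 of 8 cases and lower in 0, beside 54.6% and 13.3% of all genes tested. Calb1 and Trpv5 of this list are also among the distal convoluted and connecting tubule markers above. Trpv6, an epithelial calcium channel, ranged from 0.412 to 0.748 FPKM over control, from 5.34 to 12.03 FPKM over CKD and from 4.66 to 6.46 FPKM over CKD+Fe mice (log2 fold change in CKD 2.62, adjusted p = 2.72e-07). Its relative Trpv5 ranged from 3.26 to 5.75 FPKM over control, from 16.02 to 28.4 FPKM over CKD and from 5.74 to 26.04 FPKM over CKD+Fe mice (2.04, adjusted p = 0.000122). After median-of-ratios rescaling 4 were higher and 1 lower. The lower gene was S100g, a calcium-binding protein at 1466 to 2276 FPKM over control and 1240 to 1399 FPKM over CKD mice, without overlap (log2 fold change -0.41, adjusted p = 0.343, and -0.98, adjusted p = 0.0448, once rescaled).

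Among 8 other phosphate transporters and apical partners, 2 were higher and 4 lower, against 54.6% and 13.3% over the whole set of tested genes. Median-of-ratios rescaling gave 2 higher and 6 lower, against 3780 and 3856 of the 13143 genes tested. Xpr1 (-0.74) and Slc9a3r2 (-0.99) were added to those that fell. Slc34a2, the family member known from intestine and lung, rose from 0.573 to 1.32 FPKM in control to 12.4 to 39.05 FPKM in CKD mice and was 13.02 to 20.2 FPKM in CKD+Fe mice (log2 fold change in CKD 3.69, adjusted p = 4.49e-07). Its direction was thus the opposite of that of Slc34a1 and Slc34a3. Ezr, which encodes ezrin, rose by 0.87 (adjusted p = 6.66e-05). Slc17a3 fell from 357 to 40.4 FPKM (-3.18, adjusted p = 3.3e-05) and Pdzk1, a scaffold of brush border transporters, from 567 to 154 FPKM (-1.89, adjusted p = 4.85e-06).

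Of 6 tested mineralisation modifiers 4 were higher and 2 lower, beside 54.6% and 13.3% of all genes tested. Spp1, which encodes osteopontin, rose from 521 to 15130 FPKM (log2 fold change 4.84, adjusted p = 2.91e-08) and Mgp, matrix Gla protein, from 219 to 2583 FPKM (3.51, adjusted p = 5.92e-08). Alpl, alkaline phosphatase, fell from 114 to 48.2 FPKM (-1.23, adjusted p = 4.67e-05) and Abcc6 from 2.52 to 1.62 FPKM (-0.43, adjusted p = 0.0469). The Abcc6 call was lost after rescaling to equal totals (-0.25, adjusted p = 0.261). Median-of-ratios rescaling gave 3 higher and 2 lower, beside 3780 and 3856 of the 13143 genes tested.

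As a description, the genes whose pattern over the 12 mice was most like that of Kl were Lactb2 (Pearson r = 0.978), Ankrd13c (0.976) and Slco1a6 (0.976). The correlations of their deviations from the group means were 0.943, 0.894 and 0.910. Slco1a6, an organic anion transporter gene, averaged 102 ± 31.9 FPKM over control, 17.3 ± 5.73 FPKM over CKD and 24.98 ± 11.1 FPKM over CKD+Fe mice (SD, n = 4 each). For Cyp27b1 the nearest genes were Sgk1 (0.953), Ccdc138 (0.946) and Sumo2 (0.928), with 0.879, 0.851 and 0.814 for the deviations. Sgk1, a kinase that regulates sodium transport, averaged 32.9 ± 7.76, 64.0 ± 20.6 and 66.9 ± 13.2 FPKM in the same order of groups. The points share 3 group levels and the scaling of each library, so no p is given.

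Positions of the 10 genes on GRCm38 were taken from the deposited table. Kl spans chr5:150952607-150993817, Cyp27b1 chr10:127048250-127053006, Cyp24a1 chr2:170482708-170497145 and Vdr chr15:97854425-97910630. Slc34a1 spans chr13:55399648-55414695, Slc34a3 chr2:25228898-25234364, Slc20a1 chr2:129198764-129211616 and Slc20a2 chr8:22476788-22569612. Pth1r spans chr9:110722085-110747145 and Fgfr1 chr8:25513654-25575718. In the GENCODE M21 annotation 6 of the 10 overlap another gene, among them Cyp24a1 with Pfdn4 on the opposite strand. Pfdn4 ranged from 17.2 to 29.9 FPKM over control, from 22.3 to 25.6 FPKM over CKD and from 20.9 to 25.3 FPKM over CKD+Fe mice, while Myl3, which overlaps Pth1r, was at most 0.573 FPKM. Smim19, opposite Slc20a2, ranged from 24.3 to 29.6 FPKM over control and from 15.4 to 20.8 FPKM over CKD mice. The libraries were stranded, and whether strand was used in the counting is not given in the sources used here.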

How the data were processed

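Per the labels and the submitters' processing notes, the authors made stranded mRNA libraries from total RNA of whole kidney and processed the reads with bcl2fastq 2.19, STAR 2.5.2 and Cufflinks 2.1.1 on GRCm38. The authors deposited 1 FPKM value for each mouse and protein-coding gene, with a status that marks failed estimates (510 values in 57 genes, treated as missing).

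The deposited values were log-transformed as log2(FPKM + 1). Genes that reached 1 FPKM in 4 or more mice, 13143 in all, entered a limma fit (version 3.58.1, R 4.3.3, with a variance trend) that held the 12 mice together. Its two-sided p-values were corrected across these genes after Benjamini and Hochberg, and 0.05 was the limit for a call. Fold changes on this scale understate the change of low genes. Exact two-sided permutation tests over mice used all 70 arrangements (scipy 1.17.1), on log2(FPKM + 1) for genes and on log2 FPKM without a pseudocount for ratios, which were adjusted over 15 comparisons. On simulated data for CKD against control, 84 of 85 changes of 4-fold and 91 of 115 of 2-fold were recovered among 13127 genes. The changes were set only into genes above a minimum mean level, with all other genes unchanged. These rates therefore do not carry over to low genes or to a general shift as in these data.

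The 10 genes, the lists of pathway and marker genes and the tests were chosen with earlier results of these data known. The text names all 10 genes and, of each pathway list, up to 2 rises and 2 falls past the threshold in CKD against control, Fgf23 and Pth, as well as the 3 genes most like Kl and Cyp27b1. The alternatives were other pseudocounts, filters, scalings, weights, thresholds and each mouse left out in turn. For the 10 genes and the ratios, only leaving out the mouse of each group that stood apart was added after seeing the data, whereas for the pathway lists every alternative was. The depth in reads is unknown. A relative depth estimated from steps between low values ran from 0.678 to 1.0 of that of the first control mouse and is approximate.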

Additional observations from a re-analysis of the deposited data

Results flagged for a closer look

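In control mouse 012822 the log2 ratio of Kl to the distal convoluted and connecting tubule markers was 2.24, below the range of 2.48 to 2.504 in the other 3 control mice. The gap made up 0.913 of the range of the group, above the 95% critical value of Dixon's test for 4 values. Among the 45 groups examined in this way, 15 measures in 3 groups, it was the only one, and chance flags about 1 in 20. The other control mice were nearly equal, and all CKD and CKD+Fe mice remained below mouse 012822.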

How the results depend on the processing

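The count of the 10 genes called stayed within 1.5 times of 7 in CKD against control (7 to 10 over the alternatives), at 0 in CKD+Fe against CKD and within 1.5 times of 8 in CKD+Fe against control (7 to 10). Without the mouse of each group that stood apart, chosen after seeing the data, the counts were 9, 0 and 9. No matching counts over all genes are given for the alternatives other than median-of-ratios rescaling. Of the 7, 3 were higher, and this number was 5 after rescaling to equal totals or with an adjusted p under 0.5. Slc34a1, Slc34a3, Kl, Pth1r and Slc20a1 were called in both comparisons with control under every alternative. Scaling turned the direction of Slc20a2 to -0.33 and -0.24 in CKD and to -0.22 and -0.13 in CKD+Fe mice (median-of-ratios and quantile), and that of Vdr to 0.013 in CKD+Fe mice (equal totals). The Cyp27b1 call in CKD+Fe against control was lost with quantile normalization (1.31, adjusted p = 0.0703). In CKD+Fe against CKD, where nothing was called, leaving out 1 mouse turned the sign of Kl, Fgfr1, Cyp27b1 and Slc20a1, over ranges of -0.059 to 0.41, -0.23 to 0.0068, -0.45 to 0.42 and -0.036 to 0.30. The log2 ratio of Cyp27b1 to Cyp24a1 in CKD+Fe against control was -0.022 with a pseudocount of 1 FPKM, and that of Kl to distal markers in CKD+Fe against CKD was 0.29 with the median over the markers. No ratio passed the threshold after adjustment. Passing would have needed most of the 15 comparisons at the smallest exact p of 0.0286, so this says little about ratios whose groups did not overlap. With 3 mice against 4 the smallest exact p is 0.0571, so the ratios without 1 mouse are values without a test. Among pathway genes called in CKD against control, 28 of 39 were kept after median-of-ratios rescaling, 9 were lost and 2 changed sign. No paired analysis was possible because the groups share no replicate numbers. FPKM give no counting error, and a count model was not used here.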
